A study of Capsicum annuum with 78 samples.

Results

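Cold leaves of pepper (Capsicum annuum, cultivar CM334) at 72 h were compared with mock leaves of the same time point, using the 6 libraries whose labels give these treatments and this time, out of 78 in the series. The cold plants stood at 10 °C for 72 h, and the mock plants stayed at 24 °C without stress. All plants were 6 weeks old, and each group had 3 biological replicates, each made of leaves from 4 plants. The other libraries came from leaves of the same cultivar under cold, heat, mannitol or NaCl and from their mocks at 3 to 72 h, with a mock at 0 h, and they shared 1 statistical fit with the 6.

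Pepper is a warm-season crop that low, non-freezing temperatures injure. In plants, cold is followed first by rapid induction of transcription factors and hormone-linked genes and later by slow changes in metabolism, photosynthesis and growth. Expression after several days at low temperature therefore describes prolonged exposure rather than the first response. The identifiers in the count table carry no annotation, so the tissue could not be checked against leaf markers, and no pathway list could be tested. The study pairs the identifiers of 4 genes described here with Arabidopsis symbols (HSP21, RD26, HGO and MOS4), and their roles below are those known in Arabidopsis. They had been picked by the study as leading genes of heat, mannitol or NaCl on these same samples, so their behaviour under stress is not independent evidence.

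The cold 72 h libraries held 5888641, 6202495 and 5210016 counts, against 6338819, 6550169 and 6281044 in the mock 72 h libraries. Between 21436 and 21986 genes had at least 1 count in the cold libraries, against 21406 to 21531 in the mock libraries. Replicates correlated with r of 0.981 to 0.987 over the 19588 tested genes on log2 CPM (counts scaled to library size), and pairs of a cold and a mock library with 0.850 to 0.866. These correlations are across genes, which are not independent replicates.

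After 72 h at 10 °C, 6891 genes differed from the mock, which is 35.2% of the genes tested. Of these, 3166 were higher in cold leaves (16.2%) and 3725 were lower (19.0%). A differentially expressed gene (DEG) passed an adjusted p of 0.05 (edgeR, quasi-likelihood test, Benjamini-Hochberg) and differed by more than 1 on the log2 scale in either direction. The median log2 fold change was 1.74 among the higher DEGs and -1.70 among the lower DEGs, and it was -0.000809 over all tested genes. The extremes were 10.16 and -9.21. Most DEGs differed by 1 to 2 on the log2 scale (1887 higher, 2411 lower), and 43 higher and 16 lower DEGs differed by more than 6. In 67.8% of the tested genes all 3 cold libraries lay above or all 3 lay below every mock library, and 6740 of the 6891 DEGs were among them.

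The balance of higher and lower DEGs depended on how the libraries were scaled. With the trimmed mean of M-values (TMM), 45.9% of the DEGs were higher. With plain library totals the median of all genes moved to 0.45, and 5362 genes were higher and 2318 lower, so that 69.8% of the DEGs were higher. The fold changes and levels below use TMM. They are relative to the other transcripts of a library, and in leaves taken whole a smaller share of a cell type and less of a transcript per cell cannot be told apart.

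**Figure D1:**
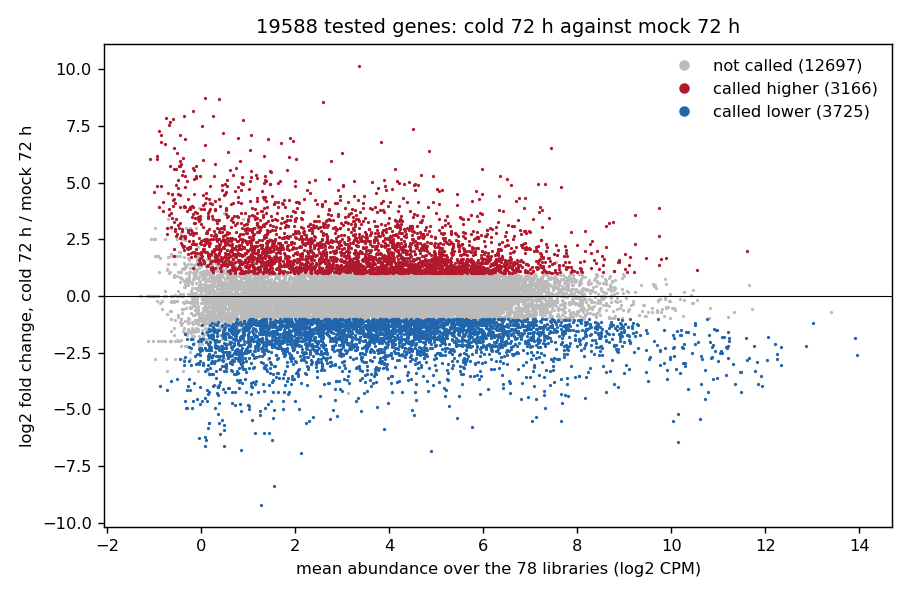
Log2 fold change of each tested gene, cold 72 h over mock 72 h, against its mean level over the 78 libraries in log2 CPM. The 3166 higher DEGs (red) include many weakly expressed genes, and among the most abundant genes at the right most points are lower DEGs (blue, 3725 in all).

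The balance of abundant and weak transcripts differed between the groups. The 100 most abundant genes of each library took 15.75, 16.81 and 17.16% of its counts in the cold leaves, against 32.36, 32.75 and 32.86% in the mock leaves. For the 10 most abundant genes the shares were 4.13, 4.66 and 5.001% in cold and 10.35, 10.74 and 10.42% in mock. The groups did not overlap in either measure, and cold 72 h had the lowest mean of the 26 groups in both. With 3 libraries against 3, the exact two-sided permutation test gave p = 0.1 for either share, the smallest value it allows. It took 1217, 1117 and 1094 genes to reach 50% of the counts in the cold libraries, against 413, 396 and 401 in the mock libraries.

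**Figure D2:**
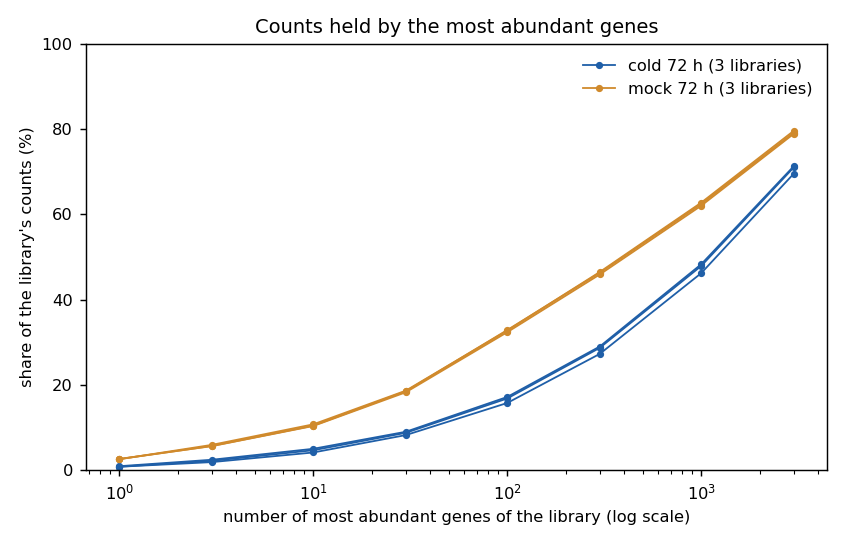
Share of a library's counts held by its most abundant genes, with 1 line per library and the number of genes on a log scale. The 3 cold 72 h lines run below the 3 mock 72 h lines, and at 100 genes they lie at 15.75 to 17.16% against 32.36 to 32.86%.

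The share of the 100 leading genes was lowest at the end of the cold series, while that of the mock was lowest at 12 h. In cold leaves it averaged 33.6 ± 0.948% (3 h), 28.1 ± 1.74% (6 h), 29.1 ± 1.85% (12 h), 23.5 ± 0.665% (24 h) and 16.6 ± 0.734% (72 h), with the SD of 3 libraries. In mock leaves it averaged 32.7 ± 1.35% (3 h), 28.8 ± 2.62% (6 h), 25.1 ± 1.85% (12 h), 29.5 ± 0.464% (24 h) and 32.7 ± 0.263% (72 h). The mock value at 12 h was still above that of cold 72 h by more than the SD of either group.

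Abundance was then defined by the 15 mock libraries of 0 to 24 h, none of which enters the comparison. Of the 100 genes most abundant in those libraries, 82 were lower DEGs in cold leaves at 72 h, 2 were higher DEGs, and their median log2 fold change was -2.28. These 100 genes took 9.65 to 12.1% of the counts of the cold 72 h libraries, against 31.4 to 32.0% in the mock 72 h libraries. Among the 1682 genes over 100 CPM, 34.9% were lower DEGs and 8.74% higher DEGs. A choice by the level in mock leaves favours genes that are high there, and genes near the detection limit in mock leaves have little room to be lower, so the classes are a description and the genes under 1 CPM are left out. The classes between 1 and 100 CPM held 16.5 to 20.6% lower and 13.9 to 18.1% higher DEGs. With library totals the 100 leading genes still held 78 lower and 2 higher DEGs, but the genes over 100 CPM had 24.9% lower and 20.3% higher DEGs with a median of 0.06, and the classes from 1 to 100 CPM then held more higher than lower DEGs (26.7 to 28.1% against 9.85 to 12.6%).

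The 3166 higher DEGs together took 25.3, 23.9 and 23.6% of the counts in the cold 72 h libraries, against 5.03, 5.16 and 5.01% in the mock 72 h libraries. The 3725 lower DEGs took 14.7, 16.9 and 18.0% in cold and 52.0, 51.0 and 52.3% in mock. These genes had been called on the same libraries, so the sums only describe the size of the shift. The 24 h libraries are not among the 6 compared, although they shared the filter, scaling and dispersion of the fit. There the same higher DEGs took 13.7 to 15.99% in cold leaves, against 5.81 to 5.86% in mock leaves, and the lower DEGs took 30.96 to 33.8%, against 47.3 to 48.0%. For both sets the 24 h cold libraries therefore lay between the 72 h cold libraries and the mocks.

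Genes at or under the detection floor in one group were counted next. They were tested because they passed the filter through other groups, which can include the other group compared here. At the floor a gene can be called in 1 direction only, so the counts are a description. Of 849 tested genes with no more than 3 counts in every mock 72 h library, 368 were higher DEGs, beside 16.2% of all tested genes. Among these 368 DEGs, 49 had no count at all in the mock. Against a floor of 3 counts per mock library (0.552 CPM), the 368 DEGs were at least 3.30-fold higher at the median. The highest bound was 63.4-fold, and 42 were at least 10-fold higher. Of 706 genes with no more than 3 counts in every cold 72 h library, 315 were lower DEGs, beside 19.0% of all tested genes. Among these 315 DEGs, 36 had no count at all in cold. The median lower bound was 2.86-fold, the highest 39.1-fold, and 20 genes exceeded 10-fold. At this depth the floor means not detectable rather than absent.

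HSP21 is a small heat shock protein of the chloroplast that keeps plastid proteins from aggregating. HSP21 (scaffold303.8) had 9.97, 7.17 and 11.5 CPM in the cold 72 h libraries, against 0.547, 0.365 and 0.935 CPM in the mock 72 h libraries. All cold values lay above all mock values. The mock levels rested on 3, 2 and 5 counts, against 72, 51 and 67 counts in cold. The log2 fold change was 3.90 with an SE of 0.56 (adjusted p = 1.41e-08, edgeR), and the ratio of the summed counts after scaling was 15.4 with a 95% exact interval of 8.17 to 32.5, which covers counting error only. Among the 4 genes with a symbol it was the only DEG, where 35.2% of all tested genes were DEGs. Reads of near-identical heat shock genes may have been divided between copies, so its level is uncertain.

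The level of HSP21 in cold leaves was low beside that in heat. It averaged 9.53 ± 2.18 CPM in cold leaves at 72 h and 3974 ± 478 CPM in heat-treated leaves at 72 h (SD, n = 3 each), a log2 difference of -8.71 (adjusted p = 8.03e-33, edgeR). Of all tested genes, 35.7% differed between cold and heat at 72 h, 33.9% between cold and mannitol, and 31.6% between cold and NaCl. Against mannitol, HSP21 gave -0.20 ± 0.32 (SE, adjusted p = 0.594), with 10.9 ± 5.66 CPM there, and against NaCl 0.49 ± 0.34 (SE, adjusted p = 0.209), with 6.60 ± 7.32 CPM. Neither difference passed the test, and the replicates in mannitol and NaCl varied widely.

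RD26 is a NAC transcription factor that dehydration and abscisic acid induce. RD26 (scaffold213.1) had 72.0, 73.0 and 66.7 CPM in the cold 72 h libraries, against 38.6, 51.9 and 43.2 CPM in the mock 72 h libraries. The groups did not overlap, but the log2 fold change of 0.66 ± 0.18 (SE, adjusted p = 0.000951) stayed under the limit of 1. With library totals it was 1.12 and would be called (adjusted p = 5.11e-07). RD26 stood at 166 ± 19.3 CPM in mannitol leaves at 72 h (SD, n = 3), from which the cold leaves differed by -1.23 on the log2 scale (adjusted p = 5.09e-09). Against heat and NaCl at 72 h the log2 differences of RD26 were 0.19 and 0.03 (adjusted p = 0.342 and 0.874).

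HGO, homogentisate dioxygenase, acts in the breakdown of tyrosine. HGO (scaffold739.4) had 23.95, 27.98 and 28.74 CPM in the cold 72 h libraries, against 18.41, 16.81 and 16.82 CPM in the mock 72 h libraries. All cold values were above all mock values, with a log2 fold change of 0.63 ± 0.12 (SE, adjusted p = 1.08e-05), again under the limit. Library totals gave 1.08, past it (adjusted p = 9.9e-11). HGO averaged 37.6 ± 3.82 CPM in heat, 39.2 ± 7.38 CPM in mannitol and 41.4 ± 3.45 CPM in NaCl at 72 h (SD, n = 3 each). The cold leaves differed from them by -0.48, -0.55 and -0.63 on the log2 scale (adjusted p = 0.000195, 3.07e-05 and 2.39e-06), under the limit in each case.

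MOS4 belongs to a spliceosome-associated complex that takes part in plant immunity. MOS4 (scaffold1129.32) had 42.6, 49.3 and 48.9 CPM in the cold 72 h libraries, against 41.2, 50.8 and 43.0 CPM in the mock 72 h libraries. The groups overlapped, and the log2 fold change was 0.06 ± 0.10 (SE, adjusted p = 0.594). It was -0.019 with upper-quartile scaling and 0.51 with library totals (adjusted p = 2.07e-06), still under the limit. Overlap was thus seen for 1 of the 4 symbol genes, and 3 did not overlap, where 67.8% of all tested genes did not.

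The DEGs without a name are represented by 2 that rose and 2 that fell, those with the smallest p and with the largest difference in mean CPM in each direction, chosen by these values. Scaffold257.98, which had the smallest p among risers, had 212, 206 and 217 CPM in the cold 72 h libraries, against 32.1, 35.4 and 35.7 CPM in the mock 72 h libraries (log2 fold change 2.62 ± 0.09, SE, adjusted p = 6.84e-33, edgeR). Its cold replicates differed by only 5.36 CPM (SD). Scaffold1459.8 gained most, with 2422, 2534 and 2684 CPM in cold and 255, 262 and 288 CPM in mock (log2 fold change 3.25 ± 0.20, SE, adjusted p = 4.59e-22, edgeR). Both genes were also higher in cold leaves than in heat, mannitol and NaCl leaves of 72 h, by 2.22 to 3.18 on the log2 scale. In NaCl at 24 h against the 24 h mock, scaffold1459.8 was a higher DEG (log2 fold change 1.64), and scaffold257.98 was not a DEG (0.07).

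Scaffold1150.2 had the smallest p of all falling genes. Its level was 73.2, 73.7 and 65.0 CPM in the cold 72 h libraries, against 857, 773 and 809 CPM in the mock 72 h libraries (log2 fold change -3.52 ± 0.09, SE, adjusted p = 1.6e-40, edgeR). Scaffold92.11 lost most, with 3737, 5279 and 6080 CPM in cold and 30350, 30499 and 30328 CPM in mock (log2 fold change -2.59 ± 0.14, SE, adjusted p = 4.91e-25, edgeR). Its cold replicates varied more than its mock replicates (SD 1191 and 93.0 CPM). Both falling genes were lower in cold leaves than in heat, mannitol and NaCl leaves of 72 h, with log2 differences of -1.30 to -3.21. Against the same mock, both were also lower DEGs in heat at 72 h (-2.22 for scaffold1150.2, -1.20 for scaffold92.11). In mannitol and NaCl at 72 h neither was a DEG. In NaCl at 24 h against the 24 h mock, scaffold92.11 was a lower DEG (log2 fold change -1.32), and scaffold1150.2 was not a DEG (-0.53).

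**Figure D3:**
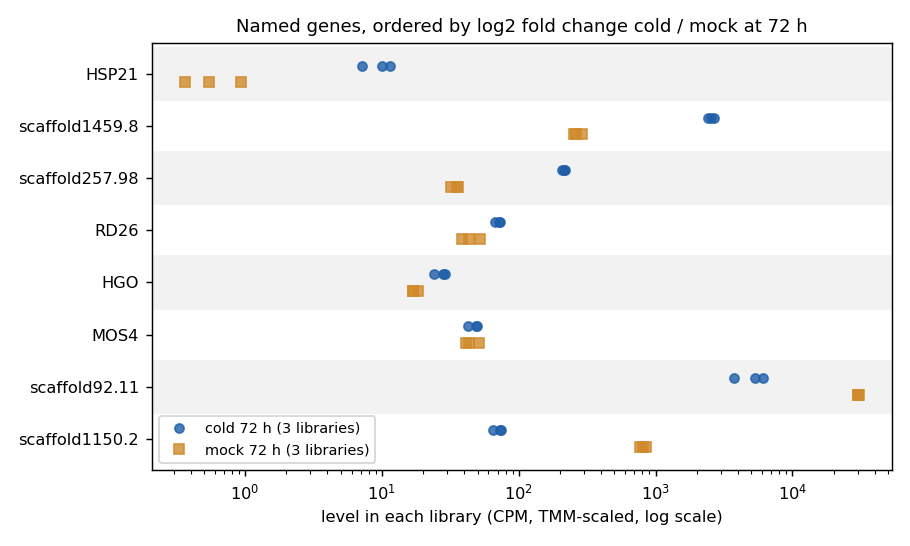
Level of the 8 named genes in each library at 72 h, in CPM on a log scale, with cold libraries as circles above mock libraries as squares. Cold and mock overlap for MOS4 alone, HSP21 has the lowest levels, and scaffold92.11 lies at 3737 to 6080 CPM in cold against 30328 to 30499 CPM in mock.

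The effect of cold was next followed back through the earlier time points, each against its own mock. These comparisons share no library with that at 72 h. DEGs made up 8.33% (3 h), 15.5% (6 h), 24.8% (12 h) and 23.8% (24 h) of the tested genes, with 3.09, 8.47, 12.8 and 13.1% higher and 5.23, 7.06, 11.9 and 10.7% lower at these times. Of the 3166 genes higher at 72 h, 139 (3 h), 379 (6 h), 825 (12 h) and 1611 (24 h) were already higher, or 4.39, 12, 26.1 and 50.9% of them. At 3 h this share was above the 3.09% of all tested genes that were higher then. The 1611 genes made up 62.9% of the genes higher at 24 h. Of the 3725 genes lower at 72 h, 233 (3 h), 402 (6 h), 780 (12 h) and 1492 (24 h) were already lower, or 6.26, 10.8, 20.9 and 40.1% of them, and the 1492 genes made up 70.9% of the genes lower at 24 h.

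Some genes had the opposite call earlier. Of the genes higher at 72 h, 375 (3 h), 339 (6 h), 435 (12 h) and 18 (24 h) were lower DEGs, or 11.8, 10.7, 13.7 and 0.569%. Of the genes lower at 72 h, 158 (3 h), 455 (6 h), 526 (12 h) and 64 (24 h) were higher DEGs, or 4.24, 12.2, 14.1 and 1.72%. At 3 h and 6 h both shares were above those of all tested genes in that direction. The latter were 5.23 and 7.06% for lower DEGs and 3.09 and 8.47% for higher DEGs. At 12 h both shares were slightly above those of all tested genes (11.9% lower and 12.8% higher DEGs), and at 24 h both were below them. The median log2 fold change of the genes higher at 72 h was -0.32 (3 h), -0.03 (6 h), 0.18 (12 h) and 1.12 (24 h), beside -0.03, -0.01, -0.04 and 0.02 over all tested genes. For the genes lower at 72 h the medians were 0.10, -0.0025, -0.12 and -0.84.

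**Figure D4:**
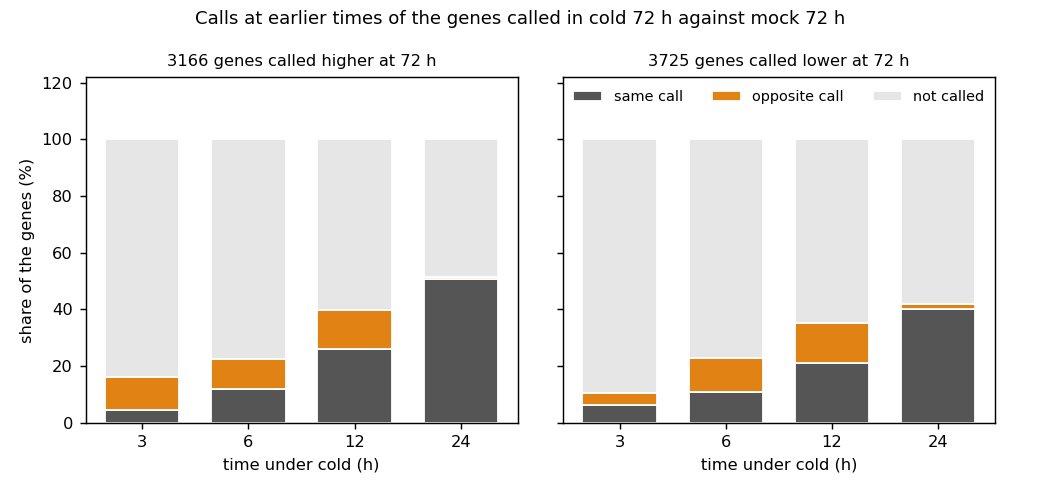
Share of the genes called at 72 h that had the same call, the opposite call or no call at each earlier time point, for 3166 higher (left) and 3725 lower genes (right). The same call grows to 50.9% and 40.1% at 24 h, while the opposite call, 11.8% and 4.24% at 3 h, is 0.569% and 1.72% at 24 h.

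Few genes kept 1 call throughout. The same call at all 5 time points was found for 81 higher genes (2.56%) and 78 lower genes (2.09%). No call at any earlier time point was found for 985 higher genes (31.1%) and 1363 lower genes (36.6%). The absence of an earlier call does not show a late effect. In the direct test of the effect at 72 h against that at 24 h, described next, 340 of these 985 higher genes passed. So did 616 of the 1363 lower genes, beside 17.0% of all tested genes. A choice by a call at 72 h and none at 24 h used libraries of that test and favours passing it, so these counts are a description. Genes without an earlier call had smaller median log2 fold changes than those with one, which is a description without a test (1.35 against 2.01 for higher genes and -1.46 against -1.88 for lower genes). Of those without an earlier call, 18.6% of the higher and 20.5% of the lower ones differed by more than 2 on the log2 scale.

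The difference between the cold effect at 72 h and that at 24 h was tested directly, as an interaction within the fit. It passed the limits for 3321 genes, 17.0% of those tested, of which 1205 had a more positive effect and 2116 a more negative effect at 72 h. Between 24 h and 72 h, 13.3% of the tested genes changed in cold leaves and 4.30% in mock leaves.

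The cold effect of RD26 was smaller at 72 h than at 24 h, when its mock level was lowest. Its log2 fold change against the mock was -0.34 (3 h), 2.85 (6 h), 3.12 (12 h), 2.97 (24 h) and 0.66 (72 h). The effect at 72 h minus that at 24 h was -2.31 ± 0.27 on the log2 scale (SE, adjusted p = 1.35e-10, edgeR). Cold leaves held 70.6 ± 3.36 CPM at 72 h and 109 ± 8.77 CPM at 24 h, a log2 difference of -0.63 (adjusted p = 0.00195). Mock leaves held 44.6 ± 6.73 CPM at 72 h and 14.0 ± 1.69 CPM at 24 h (SD, n = 3 each), a log2 difference of 1.67 (adjusted p = 3.46e-09). The rise of the mock passed the limits, and the change of the cold leaves did not reach a log2 fold change of 1. At 0 to 12 h the mock means had been 31.0 to 39.5 CPM, so the 24 h mean was the lowest of the mock series. The cold leaves had held 270 ± 9.86 CPM at 12 h (SD, n = 3).

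HSP21 had log2 fold changes of 0.97 (3 h), 1.12 (6 h), 2.06 (12 h), 3.78 (24 h) and 3.90 (72 h), the last 4 of which passed the limits. In cold leaves its mean level stayed between 6.25 and 12.9 CPM over these times. In mock leaves it was 4.50 ± 0.276 (3 h), 2.88 ± 1.06 (6 h), 3.06 ± 0.116 (12 h), 0.689 ± 0.287 (24 h) and 0.616 ± 0.291 CPM (72 h), with the SD of 3 libraries. HGO differed from its mock by -0.76 at 6 h, where it did not pass the limit, and was a higher DEG at 24 h (log2 fold change 1.24 ± 0.13, SE, adjusted p = 1.3e-12, edgeR). Cold leaves held 27.5 ± 1.95 CPM of HGO at 24 h and 26.9 ± 2.57 CPM at 72 h (SD, n = 3 each). Its mock had its lowest mean at 24 h, 11.6 ± 0.841 CPM. The HGO effect at 72 h minus that at 24 h was -0.61 (adjusted p = 0.00495, edgeR), under the limit. MOS4 was a DEG at none of the 5 time points, with log2 fold changes from -0.08 to 0.18.

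The unnamed genes followed different courses. Scaffold257.98 had log2 fold changes of 0.04 (3 h), 0.38 (6 h), 1.01 (12 h), 1.93 (24 h) and 2.62 (72 h), each above the one before. Scaffold1459.8 was first a DEG at 24 h, with 1.64, and its effect at 72 h was larger than that at 24 h by 1.61 ± 0.26 (SE, adjusted p = 9.96e-07, edgeR). Its cold level was 2547 ± 131 CPM at 72 h and 678 ± 118 CPM at 24 h, while the mock held 268 ± 17.5 and 218 ± 10.4 CPM at these times (SD, n = 3 each).

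Scaffold1150.2 turned from a higher to a lower DEG. Its log2 fold change was 1.26 (3 h), 3.51 (6 h), 5.79 (12 h), -2.502 (24 h) and -3.52 (72 h). In cold leaves the level was 539.5 ± 13.7 (3 h), 364 ± 27.2 (6 h), 373 ± 30.2 (12 h), 109 ± 8.69 (24 h) and 70.6 ± 4.88 CPM (72 h), with the SD of 3 libraries. The mock moved through a wider range, with 225 ± 5.12 (3 h), 31.9 ± 4.99 (6 h), 6.74 ± 0.350 (12 h), 615 ± 28.2 (24 h) and 813 ± 41.9 CPM (72 h). The interaction of scaffold1150.2 was -1.02 ± 0.12 (SE, adjusted p = 8.55e-11), and 8 other ways of scaling, filtering, thinning or fitting put it between -0.68 and -0.98, under the limit. So did leaving out cold replicate 3 (-0.97) or mock replicate 1 (-0.96).

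Scaffold92.11 had log2 fold changes of 0.23 (3 h), 0.69 (6 h), 1.09 (12 h), -0.68 (24 h) and -2.59 (72 h). Its interaction between 72 h and 24 h was -1.91 ± 0.19 (SE, adjusted p = 5.54e-13, edgeR). The cold leaves held their lowest mean at 72 h, 5032 ± 1191 CPM, and the mock held its lowest at 12 h, 10628 ± 1651 CPM (SD, n = 3 each).

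**Figure D5:**
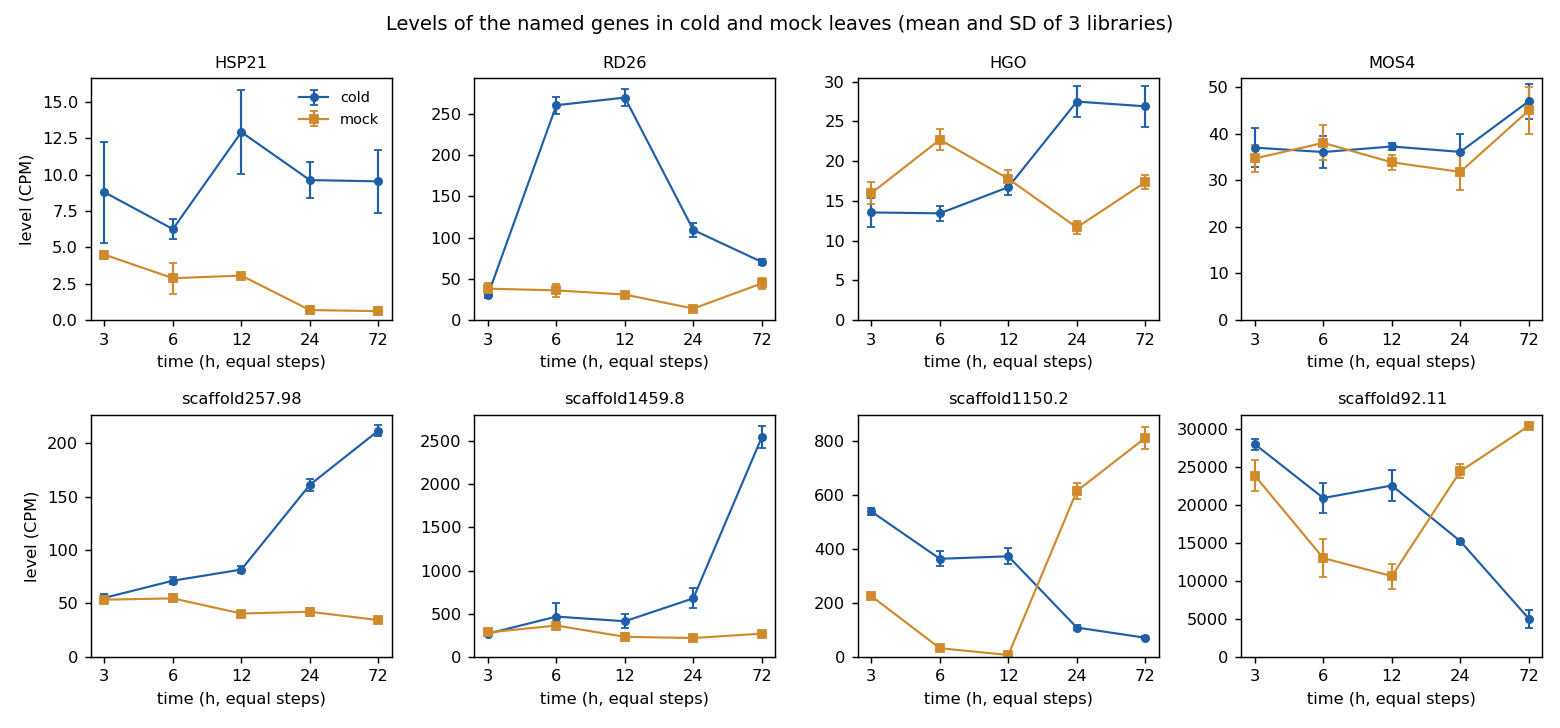
Mean level and SD of 3 libraries for the 8 named genes in cold (circles) and mock leaves (squares) over the 5 time points, in CPM on linear axes from 0. RD26 peaks at 12 h in cold, scaffold257.98 and scaffold1459.8 are highest at 72 h in cold, and the lines of scaffold1150.2 and scaffold92.11 cross between 12 h and 24 h.

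The same 3166 and 3725 genes were looked up in the other stresses at 24 h, against the 24 h mock, since those libraries are distinct from the 6 compared here. These comparisons share their mock with each other, so their values stand side by side only. NaCl at 24 h changed 23.8% of the tested genes, heat 22.5% and mannitol 12.3%. Of the genes higher in cold at 72 h, 30.7% were higher DEGs in NaCl, 21.6% in heat and 11.1% in mannitol, beside 12.8, 11.5 and 7.02% of all tested genes. Of the genes lower in cold at 72 h, 34.9% were lower DEGs in NaCl, 25.1% in heat and 8.30% in mannitol, beside 11, 11 and 5.25% of all tested genes. The shared higher genes were 38.6% of those higher in NaCl, 30.4% of those higher in heat and 25.7% of those higher in mannitol. The shared lower genes were 60.3% of those lower in NaCl, 43.4% of those lower in heat and 30.1% of those lower in mannitol. Opposite calls were found for 3, 7.86 and 7.08% of the genes higher in cold and for 6.79, 7.7 and 7.68% of the genes lower in cold, in NaCl, heat and mannitol in this order. In mannitol the opposite share of the genes lower in cold, 7.68%, was close to their same-direction share of 8.30% and to the 7.02% of all tested genes that were higher there. The opposite share of the genes higher in cold, 7.08% in mannitol, was above the 5.25% of all tested genes that were lower there.

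Unstressed leaves also differed among themselves, with 15.0% of the tested genes differing between mock leaves at 12 h and at 24 h. Of the 1621 genes higher in the mock at 12 h than at 24 h, 737 (45.5%) were higher in cold at 72 h, which is 23.3% of that list beside 8.28% of all tested genes, and 141 were lower. Of the 1317 genes lower in the mock at 12 h, 766 (58.2%) were lower in cold at 72 h, which is 20.6% of that list beside 6.72% of all tested genes, and 59 were higher. Cold and mock leaves at 72 h were collected at the same time point, and whether their daily rhythms had the same phase then was not tested.

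Genes with neighbouring numbers on a scaffold were considered last, as the numbers follow the order of the table on all 2639 scaffolds. Of the higher DEGs with a tested gene next to them, 31.1% had a higher DEG as neighbour, beside 22.9% of all genes with a tested neighbour. For the lower DEGs the shares were 37.6% and 26.2%. The longest unbroken runs were 5 higher and 9 lower DEGs. Reads shared by tandem copies or by overlapping genes could add to these shares, and this was not tested.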

How the data were processed

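The authors trimmed the reads (cutadapt 1.9.1, checked with FastQC 0.11.5), aligned them with HISAT2 and counted them with featureCounts 1.5.2, as the submitters' processing notes list them. The deposited values are raw read counts for 35884 genes, without normalization. The libraries were strand-specific, but the strand setting of the counting is not given in the sources used here, so overlapping and antisense genes may share reads. Groups came from the sample labels. The identifiers matched 0 of the 48341 genes of the reference table (assembly UCD10Xv1.1), so no coordinates or sequences are given.

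The 19588 genes kept by filterByExpr were tested with edgeR 4.0.16 (limma 3.58.1, R 4.3.3) on TMM-scaled libraries. A single quasi-likelihood fit without a block took in the 78 libraries of all 26 groups. Benjamini-Hochberg adjustment ran over every tested gene of a contrast. The limits for a DEG, as in the study, were an adjusted p of 0.05 and a log2 difference of 1 in either direction. SEs follow from the fold change and its F statistic. CPM are TMM-scaled, and the log2 CPM behind correlations had a prior count of 2. The detection floor was 3 counts. Total counts per library in the series ran from 4310398 to 7667094, and intervals cover counting error only, since reads carry no molecular identifiers. Tested on simulated counts with known changes, the fit called nearly all of the changed genes. The simulation used the fit's own spread and changed few genes, each by more than the limit and equally in both directions. It therefore cannot test the scaling where many genes differ.

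The rule for named genes took the symbols the study gives beside gene identifiers, if within the first 500 genes of the stress concerned, plus 2 rising and 2 falling genes by p and by difference in CPM. Only the 4 symbols with an identifier available as text were used, fewer than the rule allowed, and this was decided after values had been seen. The comparison, symbols and lists were chosen with earlier results of these data known. The contrasts of other stresses at 24 h and between mock times were not planned and came after the first results. Biological replicates are as the labels state them, and whether replicates were grown in separate runs is not given. The p-values therefore measure only the spread between replicate samples, estimated over all 78 libraries. With the 6 libraries alone, the adjusted p of scaffold1150.2 was 1.41e-11 in place of 1.6e-40 (edgeR). Alternatives were DESeq2 1.42.0, a replicate block, the 6 libraries alone, other filters and scalings, thinning, a robust fit, the adjusted p alone, each 72 h library left out and, added after the data had been seen, library totals without the 100 most abundant genes and the abundance classes under each scaling.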

Additional observations from a re-analysis of the deposited data

Results flagged for a closer look

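The effect of cold differed between 72 h and 24 h for 3321 genes by the interaction test (adjusted p under 0.05 and an absolute log2 difference over 1, edgeR). Among the named genes, RD26 (scaffold213.1) had a difference of -2.31, with 70.6 ± 3.36 CPM in cold and 44.6 ± 6.73 CPM in mock leaves at 72 h, against 109 ± 8.77 and 14.0 ± 1.69 CPM at 24 h (SD, n = 3 each). The 24 h mean of RD26 was the lowest of its mock series. Scaffold92.11 had a difference of -1.91, scaffold1150.2 of -1.02 and scaffold1459.8 of 1.61. Groups of 3 libraries were too small to look for single outlying samples.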

How the results depend on the processing

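The 6891 DEGs stayed within 1.5 times that number under all alternatives but the adjusted p alone, which gave 12750 (6408 higher, 6342 lower) and 6959 genes with a differing effect between 72 h and 24 h. Library totals gave 5362 higher and 2318 lower genes, and the same 3166 higher and 2318 of the 3725 lower genes kept their calls there. The 6 libraries alone gave 6083 DEGs. The share of higher DEGs was 69.8% with library totals and lay between 42.0% and 50.3% in all other settings. DESeq2 kept 3069 higher and 3571 lower calls. Leaving out each 72 h library in turn gave 6754 to 6913 DEGs, 3111 to 3187 higher, 3643 to 3759 lower and 3106 to 3382 genes with a differing effect. No DEG took the opposite call in any setting. MOS4 changed sign with upper-quartile scaling (-0.019) and without mock replicate 1, its values without single libraries running from -0.0044 to 0.16, and library totals gave 0.51 (adjusted p = 2.07e-06). Same-numbered cold and mock libraries deviated together with r of 0.16, 0.04 and 0.0006, so the numbers were not taken to pair them, and a replicate block gave 6891 DEGs, 3169 higher and 3722 lower, and 3330 genes with a differing effect. Replicates 1 and 2, but not 3, of cold correlated best with their own number. The difference between 72 h and 24 h could not be computed from the 6 libraries alone. Depth limits HSP21 in mock leaves (2 to 5 counts) and the genes at the floor.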
